A study of Mus musculus with 2 samples.

Results

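The lungs of silica-treated mice that lack the chemokine receptor CCR2 (CCR2KO) were compared with wild-type (WT) lungs in 1 set of hashtag-labelled single-cell suspensions, those carrying the tags A0304, A0305 and A0306 in either genotype's table. The cells were chosen by their tag prefix alone, and cells with 200 or more detected genes and 25% or less of their reads on mitochondrial genes were kept. This gave 11754 cells of the 32445 kept in the whole series, 5837 from WT and 5917 from CCR2KO lungs, in 6 of the 17 tags. A tag held 1936, 1982, 1919 kept cells in WT and 2100, 1828, 1989 in CCR2KO. Reads were summed over the cells of a tag, so that each genotype had 3 values per gene, and this is called the whole-lung comparison.

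Both groups were C57BL/6 mice given silica at 400 mg/kg into the trachea, and every animal of either genotype was treated, so the comparison holds no lung without silica. The WT mice carry Ccr2, and the CCR2-/- mice are labelled only by that genotype, with no cell-type-specific driver named. Lungs were harvested on day 3, 7 or 21, and the labels do not say which tag belongs to which day, so no day is given for these tags. Sex and age are not given either. Lungs were digested with Liberase, dead cells and debris were reduced on a Percoll gradient, suspensions were stained with hashtag antibodies and pooled, and 20000 cells entered a BD Rhapsody workflow. Each genotype is 1 deposited sample, so genotype and library cannot be told apart. A tag marks a separately stained suspension. Whether it holds 1 animal is not stated, so the p-values measure the spread between suspensions, which may be technical.

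CCR2 is the receptor by which classical monocytes leave the bone marrow and enter inflamed tissue, guided by Ccl2 and related chemokines, and in the lung such monocytes become dendritic-like cells and macrophages. Silica crystals are taken up by macrophages, damage their lysosomes, and lead to lasting inflammation and scarring. Type I interferon is sensed by nearly all cells and switches on a common gene set through a transcription factor complex that binds the interferon-stimulated response element in promoters. Interferon gamma, made mainly by natural killer and T cells, raises the genes that display peptides on MHC class I and class II.

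The promoter stretches are shown because interferon-response and MHC class I genes were among those lower in CCR2KO. They come from RefSeq, build GRCm38.p6, 5′ to 3′ on the gene's strand, and the capitals mark matches to GAAA, any 2 bases and GAAA, the core spacing of the response element, or to TTTC, any 2 bases and TTTC, which is the same motif on the other strand.
Isg15 (chr4:156200835-156200936, minus strand): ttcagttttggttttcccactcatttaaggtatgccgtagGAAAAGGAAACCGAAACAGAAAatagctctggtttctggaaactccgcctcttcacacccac
Ifit3 (chr19:34583333-34583456, plus strand): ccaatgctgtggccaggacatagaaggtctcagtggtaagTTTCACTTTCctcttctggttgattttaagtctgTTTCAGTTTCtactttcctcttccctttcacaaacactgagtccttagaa
Rsad2 (chr12:26456523-26456612, minus strand): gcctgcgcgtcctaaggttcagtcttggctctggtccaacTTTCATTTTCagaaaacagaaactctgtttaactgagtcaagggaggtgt
B2m (chr2:122147508-122147597, plus strand): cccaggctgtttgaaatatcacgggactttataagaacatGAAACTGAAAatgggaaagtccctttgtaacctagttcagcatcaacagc
The Isg15 stretch holds 3 overlapping matches, Ifit3 has 2, and Rsad2 and B2m have 1 each, all within 250 bases before the annotated start. Among all 300-base promoter windows, 3.44% (1131 of 32851) hold a match on either strand, and among the genes tested in the whole lung 4.01% (567 of 14148 with a window) do. The share was 11.3% (84 of 741 genes with a window) for genes called lower in CCR2KO and 2.71% (16 of 590) for genes called higher. It was 5 of 10 for the type I interferon list, 3 of 10 for the interferon gamma and MHC class I list, and 0 of 7 for MHC class II. A match describes letters in a window and is not a measured binding site.

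A tag held between 76911261 and 93488824 reads in its kept cells. Whether molecular identifiers were collapsed is not stated, so the counts are called reads and every interval and floor given here covers counting error only. After each cell was thinned to 5000 reads, the mean number of detected genes was 931, 935 and 869.8 in the WT tags and 754, 763 and 774 in the CCR2KO tags (exact permutation p = 0.1, two-sided, the smallest that 3 against 3 allows). All CCR2KO tags lay below all WT tags. The 4 ribosomal RNA genes took 0.872 to 0.959% of reads in WT and 0.620 to 0.637% in CCR2KO. The part of this library difference in the results below was not tested. The Spearman correlation of gene levels was 0.974 to 0.978 between tags of 1 genotype and 0.963 to 0.967 between genotypes, as a description across genes. Of the kept cells, 48 cell numbers occur in both libraries. Epithelial, endothelial, stromal and immune markers of lung were all present, as the cell classes below show.

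Ccr2 itself was measured at 96.0, 96.0 and 100.4 CPM, reads scaled to a common library total, in the 3 WT tags and at 1.78, 4.36 and 2.66 CPM in the 3 CCR2KO tags. The genotypes did not overlap, and the labels and the transcript pointed the same way in all 6 tags. The fitted change was -5.07 ± 0.30 log2 units (edgeR quasi-likelihood test, Benjamini-Hochberg adjusted p = 0.000101). Changes below are given in the same way, CCR2KO over WT with ± the standard error, and a gene is said to have risen or fallen only where this adjusted p was under 0.05. A read of Ccr2 was found in 832 (14.3%) of the 5837 WT cells, and 86 CCR2KO cells (1.45% of 5917) had one. In monocyte-like cells the shares were 54.0% and 6.38%, in interstitial-macrophage-like cells 52.3% and 2.68%, against 1.64% and 0.542% in B-like cells, which should lack the receptor. Median depth in the B-like cells was 12846 reads in WT and 10746 in CCR2KO, against 29364 and 18545 in the monocyte-like cells. In summed reads of a whole lung, fewer cells of a type and less RNA per cell cannot be told apart.

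Of the 4 chemokines that bind CCR2, Ccl12 rose, from 44.1, 54.3 and 45.0 CPM in WT to 64.3, 76.5 and 93.2 CPM in CCR2KO (0.69 ± 0.15 log2 units, adjusted p = 0.0226). The tags did not overlap, but the call was lost without any 1 of WT tags 1 and 3 and CCR2KO tags 2 and 3 (adjusted p up to 0.0858). Ccl2, the main attractant of monocytes, was 338, 303.9 and 164 CPM in WT and 375, 366 and 424 CPM in CCR2KO, 0.52 log2 units (adjusted p = 0.218). Ccl7 stood at 0.80 log2 units (adjusted p = 0.0623) and Ccl8 at 1.12 log2 units (adjusted p = 0.105). With the monocyte-like and scar-type macrophage-like cells left out of the sums, which removes 1017 cells, Ccl2 reached 0.99 log2 units (adjusted p = 0.0429). In the Ccr2 gene cluster on chromosome 9, Ccr1, a receptor of inflammatory chemokines, fell by 0.92 on the log2 scale (adjusted p = 0.00411) and Ccrl2 was at -0.81 log2 units (adjusted p = 0.00513). Without the 1017 cells the values were -0.52 log2 units (adjusted p = 0.121) and -0.50 log2 units (adjusted p = 0.0842). Ltf, Xcr1, Fyco1, Lztfl1, Ccr3, Ccr9 and Cxcr6 did not pass.

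Across the whole lung, 768 genes were higher and 1021 lower in CCR2KO among 19737 tested, or 3.89% and 5.17%, together 9.06%, and the tags of the genotypes did not overlap for 29.5% of genes. The falls were led by genes of monocytes and of the interferon response, and the rises by immunoglobulin and airway secretory genes. Without the monocyte-like and scar-type cells, 399 genes were higher and 563 lower. Leaving out 1 tag at a time gave 421 to 537 higher and 650 to 750 lower, the fewest higher without CCR2KO tag 1. The median log2 change over all genes tested was 0.00865.

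**Figure D1:**
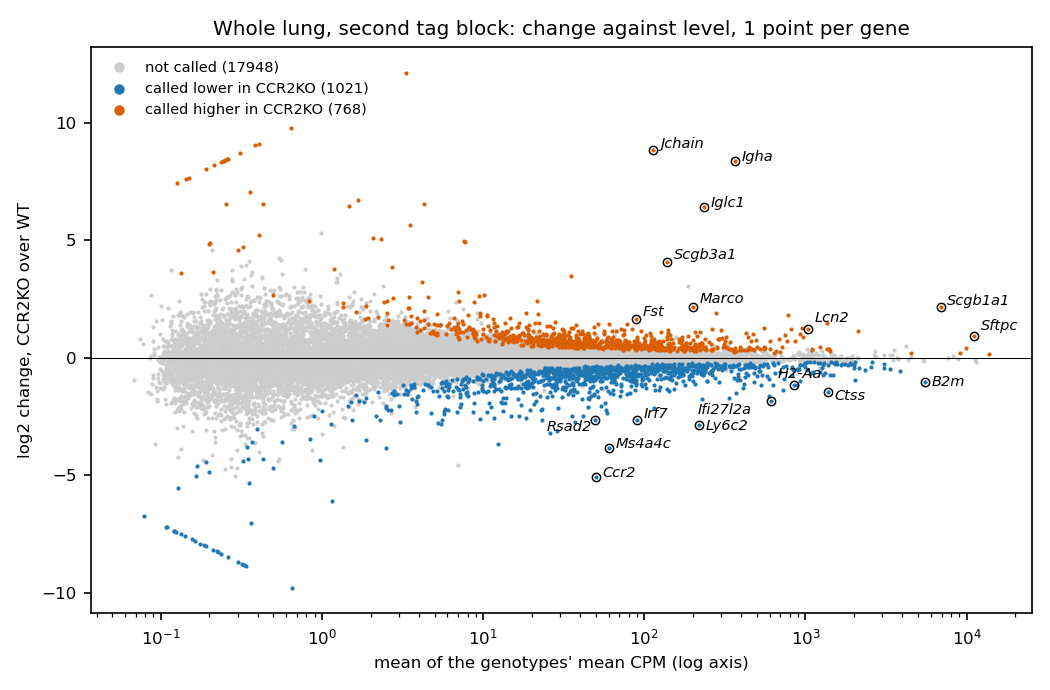
Each point is 1 of the 19737 genes tested, placed by its level (mean of the genotypes' mean CPM, log axis) and its log2 change, CCR2KO over WT, with coloured points for the 768 genes called higher and the 1021 called lower and with named genes circled. Ccr2 and interferon-response genes lie at the bottom, and Jchain and Igha stand apart at the top.

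The largest falls under the naming rule included Ccr2, Ms4a4c, Oasl1, Ly6c2, Ifi209, Irf7, Ifitm6, Rsad2, Apoc2, Ifi44, Ifit3b, Phf11b, Ifi204 and Gpr141. Ly6c2, which encodes the surface antigen that marks classical monocytes, went from 398, 340.4 and 414 CPM to 52.9, 40.03 and 65.6 CPM (-2.88 ± 0.17 log2 units, adjusted p = 0.000106). Ms4a4c, another gene of classical monocytes, went from 125, 93.9 and 118 CPM to 9.18, 8.06 and 6.44 CPM (-3.84 ± 0.17 log2 units, adjusted p = 4.31e-05). For both, each CCR2KO tag was below every WT tag, which the naming rule requires. Monocyte-like cells held 42.4% of the WT reads of Ms4a4c and scar-type macrophage-like cells 20.8%. Ifi209 and Ifi204, members of the p200 family of interferon-inducible DNA sensors, fell by 2.75 and 2.36 on the log2 scale (adjusted p = 0.000870 and 0.000825). Ifitm6, of the interferon-induced transmembrane family, changed by -2.65 log2 units (adjusted p = 0.00185), and Oasl1, a 2′-5′ oligoadenylate synthetase-like interferon-response gene, by -3.14 log2 units (adjusted p = 0.00581). Apoc2, an apolipoprotein gene, was at -2.56 log2 units (adjusted p = 0.00587) and the orphan receptor gene Gpr141 at -2.26 log2 units (adjusted p = 0.00436). Both lost their call when the monocyte-like and scar-type cells were left out, at -1.68 log2 units (adjusted p = 0.0802) and -1.65 log2 units (adjusted p = 0.0814), and the others listed here kept it. All of these genes were called in each of the 6 fits that left out 1 tag.

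All 14 tested genes of the type I interferon response list fell, with a median log2 change of -2.11 and a range from -2.66 to -1.09. Their summed level was 2010.2, 1601 and 1982 CPM in the WT tags and 471, 422 and 550.4 CPM in the CCR2KO tags, which did not overlap. Irf7, the transcription factor that amplifies the interferon response, measured 167, 122 and 175 CPM in WT and 23.5, 23.8 and 27.0 CPM in CCR2KO (-2.66 ± 0.15 log2 units, adjusted p = 9.82e-05). Isg15, the ubiquitin-like modifier whose promoter is shown above, measured 213, 136 and 211 CPM and 37.9, 41.0 and 50.3 CPM (-2.13 ± 0.19 log2 units, adjusted p = 0.000517). Each of these genes was lower in every CCR2KO tag than in any WT tag. Rsad2, which encodes the antiviral enzyme viperin, went from 94.0, 69.8 and 90.8 CPM to 21.6, 12.9 and 6.60 CPM (-2.64 ± 0.37 log2 units, adjusted p = 0.00398). Ifit3, an RNA-binding antiviral factor, went from 108, 72.5 and 106 CPM to 22.4, 16.9 and 21.6 CPM (-2.25 ± 0.18 log2 units, adjusted p = 0.000324). Ifi27l2a, an interferon-induced mitochondrial protein gene, went from 1024, 881 and 970.2 CPM to 244, 217 and 334 CPM (-1.87 ± 0.15 log2 units, adjusted p = 0.000309). The remaining members were Ifi44, Ifit1, Ifit2, Oas1a, Oasl2, Cmpk2, Usp18, Mx1 and Mx2. Their changes lay between -1.09 log2 units (adjusted p = 0.0130) for Usp18, the protease that removes Isg15, and -2.63 log2 units (adjusted p = 0.00451) for Mx1, an interferon-induced GTPase gene. The calls of 2 genes depended on single tags. Ifit1 was lost without any 1 of WT tags 1, 2 and 3 and CCR2KO tag 3 and Ifit2 without any 1 of WT tags 1 and 3 and CCR2KO tag 1 (adjusted p up to 0.0743 and 0.0865). Without the monocyte-like and scar-type cells, 12 of the 14 fell, and Ifit2 and Usp18 stood at -0.86 log2 units (adjusted p = 0.1005) and -0.91 log2 units (adjusted p = 0.0622).

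Of the 13 genes of the interferon gamma and MHC class I list, 9 fell and 0 rose (median -0.79). B2m, the invariant chain of MHC class I molecules, measured 7426, 7218 and 7419.6 CPM in WT and 3377, 3716 and 3831 CPM in CCR2KO (-1.03 ± 0.05 log2 units, adjusted p = 4.31e-05), and the tags did not overlap. The class I heavy chain genes H2-D1 and H2-K1 went from 1779.7 to 1079 CPM (-0.74 ± 0.05 log2 units, adjusted p = 0.000183) and from 1486 to 993 CPM (-0.60 ± 0.07 log2 units, adjusted p = 0.00184). H2 heavy chain genes are near-identical copies, and reads may be split between them. A read of B2m was found in 98.8, 98.3 and 98.2% of the cells of the WT tags and 91.0, 93.4 and 93.7% of those of the CCR2KO tags, and of H2-D1 in 90.5, 89.9 and 87.7% and 72.9, 76.6 and 74.0%, lower in every CCR2KO tag. When these numbers of cells were fitted in place of reads, scaled to their totals over all genes, B2m stood at 0.23 log2 units (adjusted p = 1.96e-06) and H2-D1 at 0.05 (0.352). Psmb9, an immunoproteasome subunit, fell by 1.18 on the log2 scale (adjusted p = 0.000831), Tap1, the peptide transporter, by 0.79 (adjusted p = 0.00357), and Nlrc5, the transactivator of class I genes, by 1.34 (adjusted p = 0.00516). Psmb8 and Gbp4 fell as well. The interferon gamma-induced T cell chemokines Cxcl9 and Cxcl10 were at -1.32 log2 units (adjusted p = 0.0827) and -0.75 log2 units (adjusted p = 0.114), and Gbp2 and Irf1 did not pass either. Of the 9, 8 kept their call without the monocyte-like and scar-type cells, and Nlrc5 then stood at -0.87 log2 units (adjusted p = 0.0782).

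Of the 10 MHC class II genes, 6 fell and 0 rose (median -0.96). These were H2-Aa, H2-Ab1 and H2-Eb1, the chains of the class II molecules, Cd74, the invariant chain, and H2-DMa and H2-DMb1, which help load peptides. H2-Aa measured 1134, 1062 and 1302 CPM in WT and 556, 502 and 503 CPM in CCR2KO (-1.18 ± 0.08 log2 units, adjusted p = 0.000178), and Cd74 2592, 2369.8 and 3008 CPM and 1436, 1399 and 1307 CPM (-0.96 ± 0.08 log2 units, adjusted p = 0.000417). The genotypes did not overlap in either gene. All 6 passed in every fit that left out 1 tag and without the monocyte-like and scar-type cells. Ciita, the class II transactivator, was at -0.72 log2 units (adjusted p = 0.0852). Of 10 cytotoxic lymphocyte genes 5 fell (median -0.85), namely Gzma, a granule protease, Nkg7, a granule protein, Ccl5, Xcl1 and Ifng. Ifng, which encodes interferon gamma, was read at 6.68, 4.32 and 3.87 CPM in WT and 1.30, 1.96 and 2.38 CPM in CCR2KO (-1.41 ± 0.36 log2 units, adjusted p = 0.0469). These low values do not overlap, and the call was lost whichever tag was left out (adjusted p up to 0.164). The other 4 calls also rested on single tags, since Gzma, Nkg7, Ccl5 and Xcl1 were each lost without at least 1 WT tag and 1 CCR2KO tag (adjusted p up to 0.0894, 0.0831, 0.0999 and 0.0680). Natural-killer-like cells made up 2.80, 2.61 and 2.49% of the classified WT cells and 1.12, 2.23 and 1.54% of the CCR2KO cells, and the part of this in the list was not tested.

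**Figure D2:**
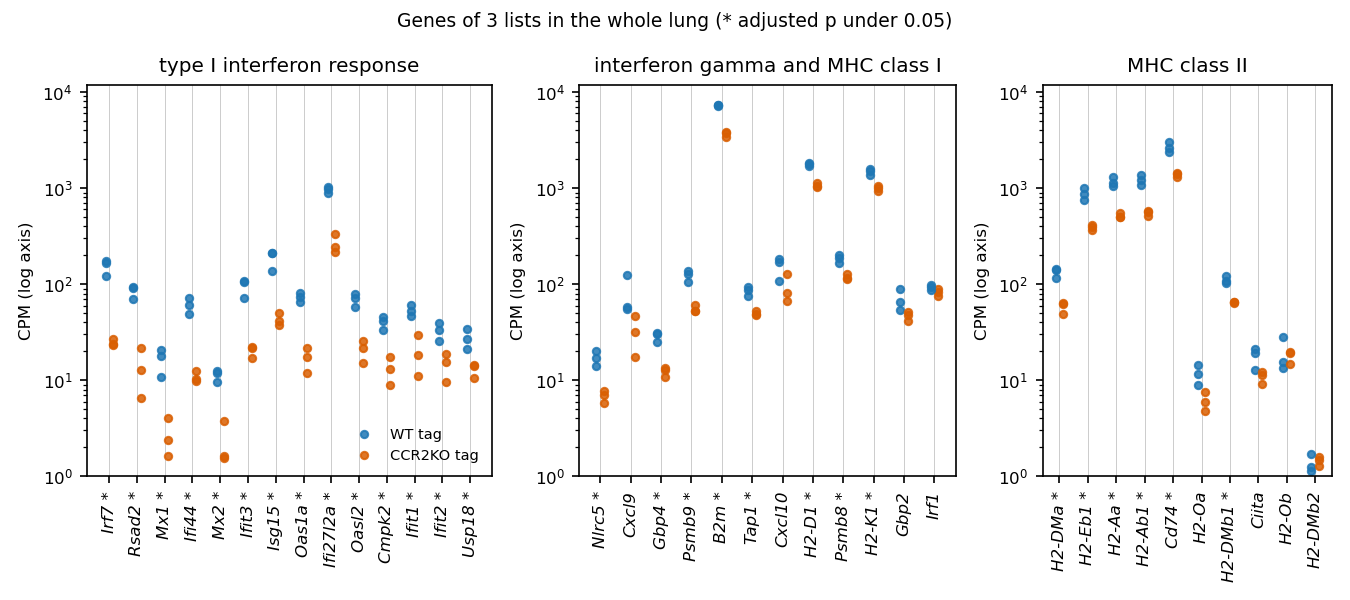
CPM on a log axis in each WT and CCR2KO tag for genes of the type I interferon, interferon gamma and MHC class I, and MHC class II lists, with an asterisk where the adjusted p was under 0.05. In all 14 type I genes the CCR2KO tags lie below the WT tags, and the 2 genotypes mix in Irf1, Cxcl10, H2-Ob and H2-DMb2.

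Genes of macrophages and their growth factors moved in both directions. Of 16 lipid-associated and scar-type macrophage genes 5 fell and 3 rose (median -0.19). Mmp12, the macrophage elastase, went from 255, 261 and 142 CPM to 102, 73.9 and 85.6 CPM (-1.34 ± 0.23 log2 units, adjusted p = 0.00833), and Ccl24, an eosinophil attractant, fell by 1.45 on the log2 scale (adjusted p = 0.00710). Apoe, Lgals3 and Gpnmb changed by -0.99, -0.60 and -0.50 log2 units. Each of these 3 calls was lost without single tags of both genotypes (adjusted p up to 0.0911, 0.0709 and 0.0904). Leaving out the monocyte-like and scar-type cells turned Lgals3 to 0.12 log2 units (adjusted p = 0.669) and Gpnmb to 0.42 log2 units (adjusted p = 0.0854), and ended the call of Ccl24, at -1.56 log2 units (adjusted p = 0.113), and of Apoe, at -0.86 log2 units (adjusted p = 0.0990). Ctsk, a collagen-degrading cathepsin, rose from 365, 371 and 237 CPM to 704, 878 and 788 CPM (1.27 ± 0.17 log2 units, adjusted p = 0.00302), with the lysosomal genes Cd63 and Ctsl at 0.34 log2 units (adjusted p = 0.0181) and 0.35 log2 units (adjusted p = 0.0130). Cd63 was called in 2 of the 6 fits that left out 1 tag. Spp1, which encodes osteopontin, was 4234, 3563 and 2559.6 CPM in WT and 3871, 5915 and 4975 CPM in CCR2KO, 0.50 log2 units (adjusted p = 0.164), and the genotypes overlapped. Ctss, the cathepsin that trims the class II invariant chain, fell from 2048, 2102 and 1902 CPM to 648, 761 and 796 CPM (-1.47 ± 0.08 log2 units, adjusted p = 9.82e-05). Csf1r, the receptor on which monocytes and macrophages depend, fell from 211, 213 and 192 CPM to 60.5, 69.2 and 106 CPM (-1.40 ± 0.19 log2 units, adjusted p = 0.00332), and the GM-CSF receptor chains Csf2ra and Csf2rb fell by 0.93 and 0.78 on the log2 scale (adjusted p = 0.00397 and 0.00266). Csf2ra was no longer called without the monocyte-like and scar-type cells, at -0.52 log2 units (adjusted p = 0.05995). Of 12 inflammasome and interleukin-1 genes 4 fell, namely Il1b, Nlrp3, Casp1 and Pycard, and 2 rose, the interleukin-1 receptor gene Il1r1 and the alarmin gene Il33. Il1b went from 466, 499 and 582 CPM to 226, 320.4 and 264 CPM (-0.95 ± 0.13 log2 units, adjusted p = 0.00385). Nlrp3 was lost without any 1 of WT tags 1 and 3 and CCR2KO tag 2, Casp1 without WT tag 1, Pycard without any 1 of WT tags 1 and 2 and Il33 without any 1 of WT tags 1 and 2 and CCR2KO tags 1 and 2 (adjusted p up to 0.0641, 0.0562, 0.0805 and 0.0842). None of the 4 falls was called without the monocyte-like and scar-type cells, with Il1b at -0.52 log2 units (adjusted p = 0.0576), Nlrp3 at -0.58 log2 units (adjusted p = 0.114), Casp1 at -0.38 log2 units (adjusted p = 0.198) and Pycard at -0.33 log2 units (adjusted p = 0.346), nor was the rise of Il33, at 0.71 log2 units (adjusted p = 0.0766). Scar-type macrophage-like cells made up 7.78, 7.12 and 6.48% of classified cells in WT and 0.782, 0.503 and 1.03% in CCR2KO.

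Of 10 alternative activation genes, Retnla rose and Arg1 and Ear2 fell. Retnla, a secreted resistin-like protein gene, went from 153, 576 and 303.3 CPM to 1336, 801 and 1494 CPM (1.80 ± 0.43 log2 units, adjusted p = 0.0335), so the tags varied widely within a genotype without overlapping. Over the whole series Retnla was among the leading genes of the airway-epithelium-like cluster, so its rise is not assigned to macrophages. The part of that class in the rise was not tested. Arg1, the arginase gene, was 107, 115 and 106 CPM in WT and 36.2, 55.4 and 77.01 CPM in CCR2KO (-0.98 ± 0.23 log2 units, adjusted p = 0.0322). Without the monocyte-like and scar-type cells Arg1 stood at 0.05 log2 units (adjusted p = 0.949) and Retnla at 1.64 log2 units (adjusted p = 0.0610). The Retnla call was lost without any 1 of WT tag 3 and CCR2KO tags 1 and 3, that of Arg1 without any 1 of WT tags 1, 2 and 3 and CCR2KO tag 2 and that of Ear2 without any 1 of WT tags 2 and 3 and CCR2KO tag 2 (adjusted p up to 0.1203, 0.104 and 0.116). Of 9 scavenger receptors only Marco, which binds silica, passed. It measured 70.0, 104 and 46.1 CPM in WT and 191, 455.9 and 333 CPM in CCR2KO (2.14 ± 0.36 log2 units, adjusted p = 0.00828). No tags overlapped, which the naming rule requires of the largest rises.

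Immunoglobulin genes gave the largest rises. Igha, the IgA heavy chain, measured 1.52, 1.37 and 3.69 CPM in WT and 819, 384 and 981 CPM in CCR2KO (8.38 ± 0.54 log2 units, adjusted p = 0.000160), and Jchain, which joins IgA into dimers, 0.268, 0.588 and 0.629 CPM and 263, 124 and 295 CPM (8.83 ± 0.45 log2 units, adjusted p = 7.33e-05). Iglc1 and Igkc, light chain genes, rose by 6.42 and 1.89 on the log2 scale (adjusted p = 0.000417 and 0.00295). The plasma-like class held 0 of 5727 classified cells in WT, which allows a share of up to 0.0524%, and 9 cells in CCR2KO. These 9 cells carried 68.3% of the CCR2KO reads of Igha, 61.0% of Jchain and 82.1% of Iglc1. At least 1 read of Igha was found in 2074 CCR2KO cells (35.1%) and 345 WT cells (5.91%), across classes that do not make antibody. Ighm, the IgM heavy chain, was at 0.94 log2 units (adjusted p = 0.347), and 3 of the 8 genes on the immunoglobulin list rose.

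Club cell and surfactant genes were higher in CCR2KO, while few alveolar type 1 and ciliated cell genes passed. Of 7 club cell markers 5 rose and 0 fell, of 8 alveolar type 1 genes only the water channel gene Aqp5 rose, by 0.71 log2 units (adjusted p = 0.00745), and of 7 ciliated cell markers 0 rose and 1 fell. Scgb3a1 and Scgb1a1, secretoglobins of airway club and secretory cells, rose by 4.09 and 2.15 on the log2 scale (adjusted p = 0.00720 and 0.0204). Scgb3a1 measured 16.6, 17.03 and 12.0 CPM in WT and 165, 73.5 and 546 CPM in CCR2KO. Reg3g, an antimicrobial lectin, measured 6.43, 5.50 and 5.16 CPM and 36.7, 23.9 and 134 CPM (3.49 ± 0.60 log2 units, adjusted p = 0.00882). For neither gene did the tags overlap, which the naming rule requires of the largest rises. A read of Reg3g was found in 2.53, 3.78 and 3.13% of the cells of the WT tags and 2.095, 2.35 and 2.51% of those of the CCR2KO tags, and fitted on these numbers Reg3g stood at -0.13 log2 units (adjusted p = 0.633). The call of Scgb1a1 was lost without any 1 of WT tag 3 and CCR2KO tags 1, 2 and 3 (adjusted p up to 0.0834). Orm1, an acute-phase protein gene, rose by 1.92 log2 units (adjusted p = 0.0111), with the call lost without WT tag 2 (adjusted p 0.0525). Of 12 surfactant genes 10 rose and 1, Lyz1, fell (median 0.98). Sftpc, which encodes surfactant protein C, went from 6859, 6036 and 10186 CPM to 15123, 16678 and 12197 CPM (0.92 ± 0.18 log2 units, adjusted p = 0.0170), and Sftpb from 514, 445 and 725 CPM to 1383, 1446 and 1193 CPM (1.24 ± 0.16 log2 units, adjusted p = 0.00295). The lamellar body gene Lamp3 and the phosphate transporter gene Slc34a2 rose by 1.07 and 1.16 log2 units. The Sftpc call was lost without any 1 of WT tags 1 and 2 and CCR2KO tags 1 and 2 and that of Sftpa1 without WT tag 1 (adjusted p up to 0.0647 and 0.0524). The whole surfactant list had 5 to 10 rises in the fits that left out 1 tag. Of 11 genes of injured alveolar epithelium 5 rose and 1 fell. The keratin gene Krt8 went from 39.0, 42.2 and 54.9 CPM to 114, 93.3 and 103 CPM (1.18 ± 0.14 log2 units, adjusted p = 0.00197), while Cdkn1a, the p21 cell cycle inhibitor, went from 508, 566 and 555 CPM to 329, 332 and 335 CPM (-0.72 ± 0.06 log2 units, adjusted p = 0.000335). Without the monocyte-like and scar-type cells Sftpc, Lyz1 and the keratin gene Krt18 lost their calls, at 0.73 log2 units (adjusted p = 0.0536), -0.32 log2 units (adjusted p = 0.0544) and 0.76 log2 units (adjusted p = 0.0681). Msln, the mesothelin gene, rose by 2.42 log2 units (adjusted p = 0.00868). Alveolar-type-2-like cells made up 3.54, 3.74 and 4.78% of classified cells in WT and 7.91, 8.94 and 6.12% in CCR2KO, airway-epithelium-like cells 0.794, 1.02 and 0.690% and 1.47, 1.68 and 2.06%, and there was 1 mesothelial-like cell in WT and 37 in CCR2KO. Their part in these rises was not tested.

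Stromal genes rose more often than they fell. Of 16 interstitial collagen and matrix genes 9 rose and 1 fell (median 0.38). Col6a3, a chain of the microfibrillar collagen VI, measured 141, 124 and 119.8 CPM in WT and 266, 239.7 and 238 CPM in CCR2KO (0.94 ± 0.09 log2 units, adjusted p = 0.000678), and Tnc, the injury-associated matrix protein tenascin C, 95.5, 97.6 and 64.8 CPM and 235, 171 and 183 CPM (1.17 ± 0.18 log2 units, adjusted p = 0.00519). In both genes all CCR2KO tags were above all WT tags. Col1a1, the chief fibrillar collagen, was at 0.29 log2 units (adjusted p = 0.0849). Col3a1 stood at 0.29 log2 units (adjusted p = 0.0130) and lost its call without any 1 of WT tags 2 and 3 and CCR2KO tag 3 (adjusted p up to 0.0545). Eln, which encodes elastin, fell from 552, 995 and 751 CPM to 346, 378 and 519 CPM (-0.90 ± 0.21 log2 units, adjusted p = 0.0335), a call lost without any 1 of WT tags 2 and 3 and CCR2KO tags 1 and 2 (adjusted p up to 0.115). Of 8 contractile genes 4 rose, among them Acta2, smooth muscle actin, from 307.5, 295 and 327 CPM to 704, 473 and 534 CPM (0.87 ± 0.13 log2 units, adjusted p = 0.00517). The others were Tagln, Tpm2 and Actg2, of which Actg2 was lost without any 1 of WT tags 1, 2 and 3 (adjusted p up to 0.103). Fst, the secreted activin inhibitor follistatin, went from 41.4, 42.0 and 43.6 CPM to 152, 125 and 129.6 CPM (1.66 ± 0.10 log2 units, adjusted p = 0.000101), and Tgfb1 fell by 0.65 log2 units (adjusted p = 0.00341). Of 10 WNT and BMP genes 4 rose, and of 9 basement membrane genes 4 rose and 1 fell. With 1 tag left out, the WNT and BMP list had 2 to 3 rises, and the basement membrane list 0 to 3 rises and 0 to 1 falls. Pdgfra, the receptor gene of lung fibroblasts, rose by 0.78 log2 units (adjusted p = 0.00389). Without the monocyte-like and scar-type cells 3 of the 9 collagen and matrix rises were called, with Col3a1 at 0.11 log2 units (adjusted p = 0.452), and Tagln, Actg2 and Tgfb1 lost their calls at 0.34 log2 units (adjusted p = 0.101), 0.78 log2 units (adjusted p = 0.0933) and -0.37 log2 units (adjusted p = 0.0524). The shares of alveolar-fibroblast-like cells were 4.34, 5.07 and 4.41% in WT and 7.38, 7.09 and 7.25% in CCR2KO, and of adventitial-fibroblast-like cells 2.06, 1.89 and 2.12% and 5.37, 3.46 and 5.50%. Their part in the rises was not tested.

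Among secreted signals, Il6 rose from 145, 156 and 139.5 CPM to 294, 237 and 308.9 CPM (0.92 ± 0.10 log2 units, adjusted p = 0.00158), and Osm, the interleukin-6 family cytokine oncostatin M made by myeloid cells, fell from 156, 189.9 and 183 CPM to 61.6, 82.9 and 82.2 CPM (-1.24 ± 0.13 log2 units, adjusted p = 0.00129). Osmr, its receptor gene, rose by 0.88 log2 units (adjusted p = 0.00183). Lcn2, the iron-scavenging lipocalin, rose from 622, 531 and 724 CPM to 1429, 1694 and 1231 CPM (1.20 ± 0.13 log2 units, adjusted p = 0.00156). None of these 4 genes had overlapping tags. Of 7 genes for neutrophil-attracting chemokines and their receptor 3 rose. Cxcl15, or lungkine, made by alveolar epithelium, went from 643, 586 and 915 CPM to 1888, 2314 and 1851 CPM (1.48 ± 0.16 log2 units, adjusted p = 0.00135), Cxcl5 was at 1.14 log2 units (adjusted p = 0.0352) and Cxcl1 at 0.64 log2 units (adjusted p = 0.0495). The latter 2 calls were lost without single tags of both genotypes (adjusted p up to 0.105 and 0.149), and so they were without the monocyte-like and scar-type cells, at 0.97 log2 units (adjusted p = 0.103) and 0.49 log2 units (adjusted p = 0.169). Cxcl2 was at -0.45 log2 units (adjusted p = 0.153). Ccl9, a chemokine gene of myeloid cells, fell from 511, 575 and 464 CPM to 111, 166 and 197 CPM (-1.72 ± 0.19 log2 units, adjusted p = 0.00142). Herpud1, a gene of the endoplasmic reticulum stress response, rose by 1.08 log2 units (adjusted p = 0.000658), and 4 of the 10 genes of that list rose with 0 falls. Of 12 iron, metal and oxidative stress genes, the metallothioneins Mt1 and Mt2 and the transferrin receptor Tfrc rose, by 0.46, 0.70 and 1.08 log2 units.

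The lists of secreted and lysosomal proteins and of lipid handling changed in both directions. Of 11 metalloproteinases and their inhibitors 3 rose and 3 fell. Mmp19, a matrix metalloproteinase, went from 95.2, 102 and 101 CPM to 43.2, 43.6 and 42.3 CPM (-1.22 ± 0.08 log2 units, adjusted p = 0.000178), and no tags overlapped. Mmp8, the neutrophil collagenase, was at -0.60 log2 units (adjusted p = 0.0305) beside Mmp12 above, and Mmp3, Timp1 and Timp2, of which the Timp genes encode inhibitors, rose by 0.76, 0.73 and 0.40 log2 units. Mmp3, Timp1 and Mmp8 each passed in 1 of the 6 fits that left out 1 tag (adjusted p up to 0.134). Of 10 lysosomal cathepsins 2 rose and 3 fell, with Ctsz and Ctsa at -0.45 log2 units (adjusted p = 0.0112) and -0.35 log2 units (adjusted p = 0.0108) beside Ctsk, Ctsl and Ctss. The Ctsa call was lost without WT tag 2 (adjusted p 0.0517). Of 10 complement genes 3 rose, among them the central component C3 and C4b, and 1, properdin or Cfp, fell. C4b went from 89.2, 91.2 and 97.6 CPM to 177, 169.9 and 217 CPM (1.01 ± 0.10 log2 units, adjusted p = 0.00105) and C3 was at 0.72 log2 units (adjusted p = 0.00108), while Cfp was at -0.84 log2 units (adjusted p = 0.0161) and passed in 3 of the 6 fits (adjusted p up to 0.0666). Of 10 cholesterol genes 3 rose and 2 fell. Sqle and Hmgcs1, enzymes of cholesterol synthesis, rose by 0.79 and 0.62 log2 units and Ch25h, which makes an oxysterol, by 0.59, and the exporters Abca1 and Abcg1 stood at -0.68 log2 units (adjusted p = 0.00686) and -0.62 log2 units (adjusted p = 0.00810). Hmgcs1 passed in 3 of the 6 fits. Of 12 genes of TGF-beta and activin 3 rose, Fst, Tgfb2 and Tgfbr2, and 1 fell, Tgfb1. Tgfb2 and Tgfbr2 passed in 1 and 2 of the 6 fits. Without the monocyte-like and scar-type cells Cfp, Mmp3, Timp1, Timp2, Hmgcs1, Ch25h, Ctsa, Ctsz, Tgfb2 and Tgfbr2 were not called, with adjusted p between 0.0555 and 0.654. Of the lists not yet given, that of TNF and NF-kB feedback had 1 rise, the adhesion gene Icam1, and 2 falls, Tnfrsf1b and Tnfaip2, out of 9. Homing chemokines had 1 rise, Cxcl13, by 1.07 log2 units (adjusted p = 0.00463), and 1 fall, Cxcr4, out of 8, and vascular growth factors had 1 rise, Vegfc, and 1 fall, Vegfa, out of 10. Of 14 immediate early and dissociation genes 2 rose, the heat shock genes Hspa1a and Hspa1b, which are near-identical copies, and 2 fell, Junb and Jund. Tnfaip2, Vegfa and Jund passed in 1 of the 6 fits, Hspa1a in 3 and Cxcr4 in 4. Tnfrsf1b, Tnfaip2, Vegfa, Cxcr4 and Hspa1a were not called without the monocyte-like and scar-type cells, with adjusted p between 0.0786 and 0.637. Of 9 PDGF and IGF genes 1 rose, of 12 glycolysis and hypoxia genes 1 fell, of 12 cell cycle genes 1 rose, and of 4 haemoglobin and 5 sex-linked genes 0 passed. Over all 38 lists and 367 genes, 84 memberships were called higher and 75 lower out of 377, against the 9.06% of all genes tested. The lists were chosen with results of these samples known, so these shares are no independent evidence of a direction.

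To describe the make-up of the suspensions, kept cells not called doublets were clustered over the whole series and named from marker genes. This gave 27 classes and a class for 5727 WT and 5781 CCR2KO cells of these tags. For 18 classes the 3 tags of 1 genotype all lay above the 3 of the other, 10 higher and 8 lower in CCR2KO. With 3 against 3 the exact permutation p cannot fall below 0.1, so no class can pass 0.05. Monocyte-like cells made up 11.0, 6.86 and 6.85% of classified cells in the WT tags and 1.37, 1.56 and 1.95% in the CCR2KO tags, and interstitial-macrophage-like cells 3.92, 5.33 and 4.14% and 1.12, 1.90 and 2.83%. Neutrophil-like cells made up 4.29, 4.81 and 5.36% in WT and 9.09, 13.2 and 10.5% in CCR2KO. Every CCR2KO tag was above every WT tag for these short-lived phagocytes. Of 10 neutrophil markers, 0 passed in the whole lung. Their summed levels overlapped, at 913, 1053 and 1162 CPM in WT and 1257, 1469 and 991 CPM in CCR2KO. Conventional-dendritic-like cells were at 2.59, 2.41 and 2.92% in WT and 1.32, 1.45 and 1.59% in CCR2KO, and migratory-dendritic-like cells at 1.96, 1.33 and 1.59% and 1.12, 0.894 and 0.823%. Classes with overlapping tags included alveolar-macrophage-like cells, at 4.71, 5.68 and 5.47% in WT and 4.79, 5.92 and 4.89% in CCR2KO, and activated-fibroblast-like cells, at 10.7, 10.5 and 8.65% and 9.09, 9.66 and 10.0%. B-like, T-like, alveolar-capillary-like, lymphatic-endothelium-like, mast-cell-like, plasmacytoid-dendritic-like and smooth-muscle-like cells overlapped too. Shares are parts of a whole, so a lower share of 1 class raises the others. Cluster 21 was led by haemoglobin genes over the whole series, but the name is not used here, because CCR2KO tag 3 held 1.80% of its cells in it while the summed haemoglobin level of that tag was 1.97 CPM. It was 416 and 429 CPM in the other CCR2KO tags and 11.2, 354 and 721 CPM in WT. The directions of 2 classes depended on the clustering. With the 6 tags clustered alone the interstitial-macrophage-like share was 0.450 points higher in CCR2KO, and at a coarser resolution the large-vessel-like share was 0.438 points higher.

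**Figure D3:**
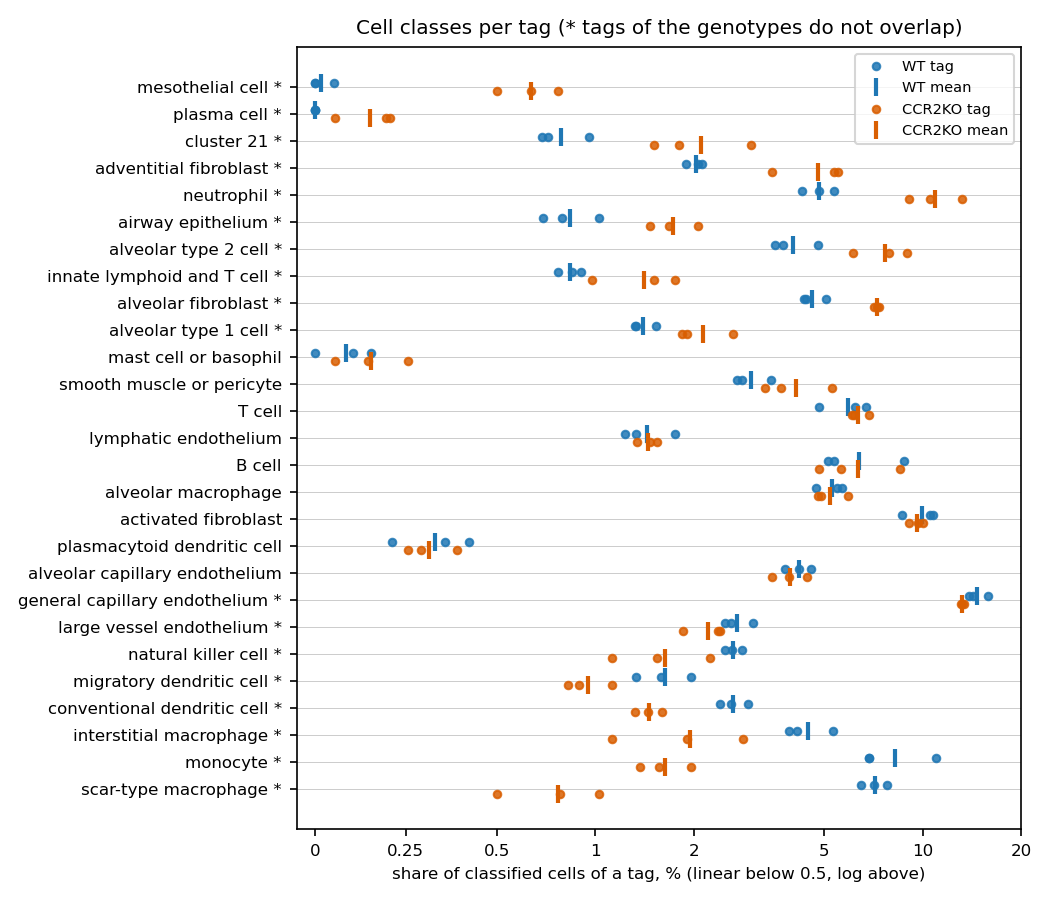
Share of classified cells (%, linear below 0.5 and log above) in each class for the 3 WT and 3 CCR2KO tags, with an asterisk for the 18 classes whose genotypes do not overlap. Monocyte-like and scar-type macrophage-like cells lie lower in CCR2KO, and neutrophil-like and alveolar-type-2-like cells higher.

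To separate levels within a class from the number of its cells, reads were summed per class and tag in the 22 classes with 10 or more cells in each of the 6 tags. Scar-type macrophage-like cells, 408 in WT and 45 in CCR2KO, were too few in CCR2KO for this. Igha, an antibody gene, was read in 10.2% of WT and 71.9% of CCR2KO alveolar-macrophage-like cells. Ccr2 was read in 4.72% of WT and 0.722% of CCR2KO activated-fibroblast-like cells. The part of reads from other cells in the results within classes was not tested. The type I interferon list was lower within the classes too. In all 20 classes where 5 or more of its genes were tested, the median log2 change was negative, from -0.71 in alveolar-macrophage-like to -6.32 in monocyte-like cells, while the medians over all genes of these classes lay between -0.19 and 0.06. In the monocyte-like class the median was -4.97 when genes without a read in CCR2KO were set at the limit of 3 reads, and the summed level of the type I interferon response list went from 4534, 5114 and 5089.8 CPM to 648, 467 and 659 CPM. B2m was lower in CCR2KO in all 22 classes tested and called in 6, and Ifi27l2a was lower in all 22 and called in 5. Of the 6 fits that left out 1 tag, B2m passed in 6 in activated-fibroblast-like, alveolar-macrophage-like and alveolar-type-1-like cells, in 2 in interstitial-macrophage-like and in 0 in alveolar-type-2-like and lymphatic-endothelium-like cells. Ifi27l2a passed in 6 in activated-fibroblast-like, in 3 in monocyte-like and in 1 in T-like, alveolar-type-1-like and alveolar-type-2-like cells. At the level of single genes, activated-fibroblast-like cells had 146 (1.06% of genes tested), alveolar-macrophage-like cells 138 (1.17%), interstitial-macrophage-like cells 45 (0.426%) and monocyte-like cells 19 (0.228%). Leaving out 1 tag gave 26 to 191 calls in activated-fibroblast-like cells, fewest without CCR2KO tag 2. It gave 20 to 109 in alveolar-macrophage-like cells, again fewest without CCR2KO tag 2. The count fell by more than 1.5 times without any 1 tag except CCR2KO tag 3 in the first class and except WT tag 1 in the second. In interstitial-macrophage-like cells it gave 4, 5 and 9 calls without WT tags 3, 1 and 2, and 0, 1 and 1 in monocyte-like cells (0 in edgeR with 548 genes at an unadjusted p under 0.05), against 32 to 48 and 16 to 28 when 1 CCR2KO tag was left out. The other 18 classes had 28 together, 13 of them in alveolar-type-1-like cells (0.142%).

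**Figure D4:**
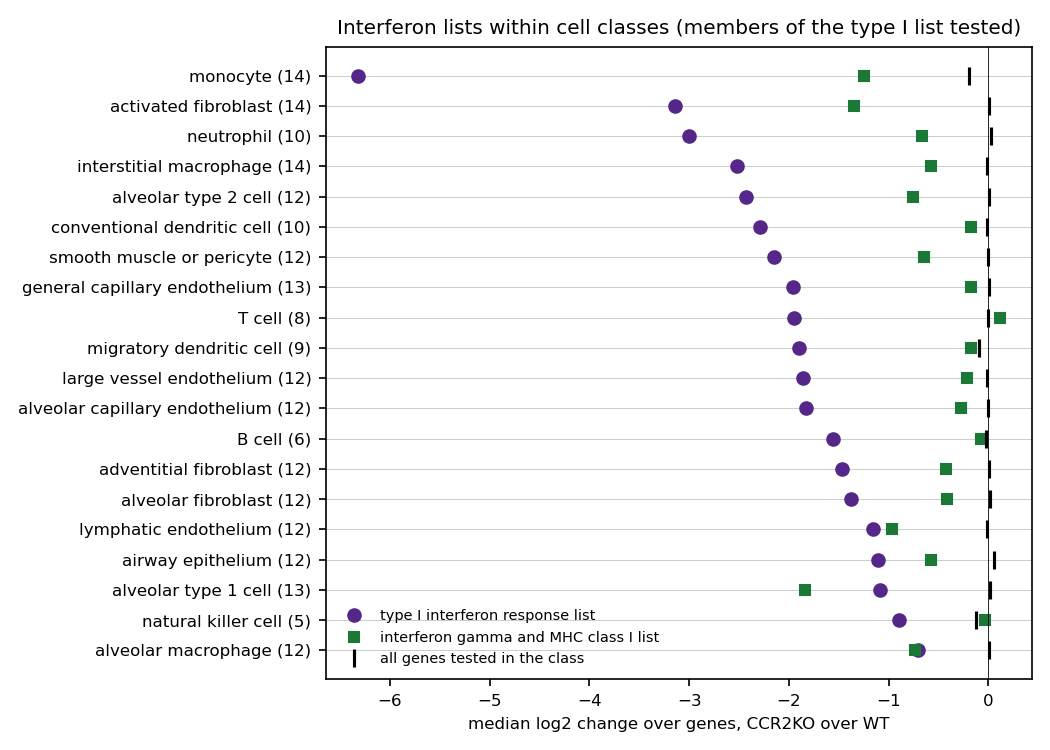
Median fitted log2 change, CCR2KO over WT, of the type I interferon list and of the interferon gamma and MHC class I list within each of 20 cell classes, with black ticks for the median over all genes tested in the class and, in parentheses, the number of type I genes tested. The type I medians are all below 0, down to -6.32 in monocyte-like cells.

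Activated-fibroblast-like cells, the Tnc-expressing stromal class, were 572 in WT and 554 in CCR2KO. In them 37 genes rose (0.269%) and 109 fell (0.793%), and 8 of the 14 type I interferon genes fell. Irf7 measured 153, 94.5 and 177 CPM in WT and 8.84, 12.1 and 23.0 CPM in CCR2KO (-3.31 ± 0.38 log2 units, adjusted p = 0.00489), and was read in 35.7% and 7.94% of the cells. Ifi27l2a measured 1199.7, 1111 and 1479.8 CPM and 92.4, 121 and 215 CPM (-3.19 ± 0.28 log2 units, adjusted p = 0.00205), and B2m 6728, 6023 and 7882 CPM and 2226, 2588 and 2949 CPM (-1.45 ± 0.12 log2 units, adjusted p = 0.00205). No tags overlapped in these 3 genes. Oas1a, which senses double-stranded RNA, and Ifi44 fell by 4.30 and 3.69 on the log2 scale (adjusted p = 0.00752 and 0.00343), H2-D1 by 1.48 (adjusted p = 0.00205) and Ly6e, an interferon-induced surface protein gene, by 1.95 (adjusted p = 0.00343). All 7 of these genes, and Ifit1, Ifit3 and Oasl2, passed in each of the 6 fits that left out 1 tag. Fst rose here from 205, 230.1 and 255 CPM to 633, 550.1 and 592 CPM (1.33 ± 0.13 log2 units, adjusted p = 0.00233), and Slpi, a secreted protease inhibitor, from 67.1, 68.8 and 74.8 CPM to 165, 236 and 242 CPM (1.57 ± 0.18 log2 units, adjusted p = 0.00489). Both passed in all 6 fits. The proliferation genes Mki67, Birc5 and Pclaf were at 1.57 log2 units (adjusted p = 0.0371), 2.12 log2 units (adjusted p = 0.0147) and 1.85 log2 units (adjusted p = 0.0317), and the chemokine Ccl2 at 1.43 log2 units (adjusted p = 0.0287). Of the 6 fits that left out 1 tag, these passed in 1, 2, 1 and 3. The matrix genes Tnc and Col6a3 were at 0.73 log2 units (adjusted p = 0.0354) and 0.65 log2 units (adjusted p = 0.0338), and Col1a2, Sparc and Eln at -0.42 log2 units (adjusted p = 0.0352), -0.38 log2 units (adjusted p = 0.0295) and -1.56 log2 units (adjusted p = 0.0457). They passed in at most 1 of those fits. Ctss, a gene of macrophages, fell by 4.54 (adjusted p = 0.00656) with 4 of 6 fits, and the summed interstitial macrophage markers were 108, 109 and 157 CPM in WT and 36.5, 53.4 and 48.0 CPM in CCR2KO. Their part in the results was not tested.

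Alveolar-macrophage-like cells, the resident phagocytes of the airspace, were 602, 299 of them in CCR2KO, with 55 genes higher (0.467%) and 83 lower (0.705%). The CCR2 ligand Ccl2 measured 51.0, 66.9 and 45.8 CPM in WT and 375, 381 and 301.98 CPM in CCR2KO (2.68 ± 0.19 log2 units, adjusted p = 0.000244) and was read in 28.7% and 44.5% of the cells. Arg1 measured 12.6, 20.3 and 19.3 CPM and 203, 248 and 434 CPM (4.08 ± 0.33 log2 units, adjusted p = 0.000605), so its direction in this class was the opposite of that in the whole lung. The tags did not overlap for either gene. Ccl7 was at 4.62 log2 units (adjusted p = 0.00629) and Ccl12 at 3.95 log2 units (adjusted p = 0.0339). In WT, a single cell held 53.3% of the Ccl7 reads. Ccl7 was lost without CCR2KO tag 2 (adjusted p 0.0661) and Ccl12 passed in 1 of the 6 fits. The lipid scavenger receptor Cd36 rose from 225, 263 and 269 CPM to 516, 547 and 623 CPM (1.15 ± 0.13 log2 units, adjusted p = 0.00375), and Marco from 615, 736 and 416 CPM to 1408, 2493 and 2249.8 CPM (1.79 ± 0.24 log2 units, adjusted p = 0.00713), the latter lost without any 1 of CCR2KO tags 2 and 3 (adjusted p up to 0.0800). Il1b, the interleukin-1 beta gene, measured 659.7, 812 and 644 CPM in WT and 170.2, 128 and 162 CPM in CCR2KO (-2.21 ± 0.15 log2 units, adjusted p = 0.000244), and was read in 63.4% and 32.8% of the cells. Il1a fell by 1.51 (adjusted p = 0.00153), the neutrophil attractant Cxcl2 by 1.74 (adjusted p = 0.000656), Slpi by 1.98 (adjusted p = 0.000656) and the neutrophil collagenase gene Mmp8 by 1.81 (adjusted p = 0.00375). B2m fell by 1.06 and H2-K1 by 0.89. Except Ccl7, Ccl12 and Marco, all genes named so far passed in all 6 fits.

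The markers of other macrophages moved with these results. In the alveolar-macrophage-like class 5 of 9 tested scar-type macrophage markers rose, Arg1, Gpnmb, Spp1, Trem2 and Fabp5, and their summed level was 20706, 16202 and 10839 CPM in WT and 30049, 35293 and 34261 CPM in CCR2KO. Of 9 interstitial macrophage markers 3 rose, with sums of 401, 365 and 106 CPM and 1677, 1616 and 1554 CPM. The complement genes C1qa and C1qc, defining markers of that type, stood at 3.26 log2 units (adjusted p = 0.0194) and 2.89 log2 units (adjusted p = 0.0418). Of these single markers and Fos, all but Arg1 were called in at most 3 of the 6 fits that left out 1 tag. Of 11 alveolar macrophage markers 1 rose and 4 fell, with sums of 16621, 21105 and 25725 CPM and 17610.0, 15587 and 13809 CPM. Of 9 classical monocyte markers 2 fell, and of 8 neutrophil markers 0 passed, with sums of 241, 326 and 263 CPM and 323, 242 and 359 CPM. The part of other macrophages in the class was not tested. Fos, an immediate early gene, stood at -1.50 log2 units (adjusted p = 0.0147), and 6 of 13 tested members of the immediate early and dissociation list fell. This list holds genes that also respond to tissue digestion.

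Interstitial-macrophage-like cells, the C1q-expressing class of the lung tissue, were 256 in WT and 112 in CCR2KO, with 16 genes higher (0.151%) and 29 lower (0.274%). Ccr2 measured 293, 331 and 316 CPM in WT and 2.41, 0 and 1.12 CPM in CCR2KO (-8.22 ± 0.60 log2 units, adjusted p = 0.000634), and Ctss 5665, 5536 and 6232 CPM and 2157, 2112 and 2446 CPM (-1.47 ± 0.11 log2 units, adjusted p = 0.000634). These 2 genes passed in all 6 fits that left out 1 tag. The monocyte gene Ly6c2 fell by 3.32 (adjusted p = 0.0147), the matrix protein gene Thbs1 by 3.55 (adjusted p = 0.00852) and H2-Aa by 1.82 (adjusted p = 0.0146). The chemokine Ccl12 rose from 625, 507 and 578 CPM to 2049.8, 1381 and 1557 CPM (1.45 ± 0.17 log2 units, adjusted p = 0.0115), and Gas6, a bridging ligand for the uptake of dying cells, by 2.405 log2 units (adjusted p = 0.0147). Of the 6 fits, Ly6c2 passed in 3, Thbs1 in 4, H2-Aa in 3, Ccl12 in 3 and Gas6 in 3. Marker levels differed within the class. Its summed classical monocyte markers were 3333, 3036 and 3033 CPM in WT and 1308, 975 and 1538 CPM in CCR2KO, and 3 of 10 fell. Its interstitial macrophage markers summed to 7766, 8949.7 and 8845 CPM and 15154, 11700.5 and 12879.6 CPM. Plasma cell transcripts were uneven, with summed markers of 259.8, 9520.0 and 4979 CPM in the CCR2KO tags. The part of these differences in the results was not tested.

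Monocyte-like cells were 470 in WT and 94 in CCR2KO, with 1 gene higher (0.012%) and 18 lower (0.216%). Rsad2 measured 431, 458 and 562 CPM in WT and 0, 0 and 1.38 CPM in CCR2KO (adjusted p = 0.00308), and the call was lost without WT tag 3 (adjusted p 0.0800). Oasl1 had reads in 89 of the 470 WT cells. None of the 94 CCR2KO cells had one, which allows a share of up to 3.19%, against 18.9% of the WT cells. With a floor of 3 reads over the CCR2KO group, the level in reads was 150.1-fold lower. Ifit3 had reads in 74 WT cells (15.7%) and 0 CCR2KO cells, and was 93.6-fold lower against the same floor. These folds count reads, of which 1 cell can hold many, so they are no lower limits over cells. Of the 6 fits that left out 1 tag, Oasl1 passed in 3 and Ifit3 in 1 (adjusted p up to 0.238 and 0.338). Ly6c2 went from 1988, 2963 and 2884 CPM to 186, 330.5 and 494 CPM (-3.08 ± 0.35 log2 units, adjusted p = 0.0154) and Cd74 from 4898, 4796 and 4316 CPM to 2067, 2063 and 2497 CPM (-1.21 ± 0.11 log2 units, adjusted p = 0.0105). Ly6c2 passed in 2 of the 6 fits that left out 1 tag and Cd74 in 3. Ccr2 within the class was at -3.79 log2 units (adjusted p = 0.102), with 472, 579.8 and 574 CPM in WT and 32.3, 97.6 and 0 CPM in CCR2KO. Cd36, the scavenger receptor gene, was the gene that rose, at 2.39 log2 units (adjusted p = 0.0440), in 1 of the 6 fits. Classical monocyte markers summed to 11953, 13872 and 12093 CPM in WT and 6924, 5279 and 6095 CPM in CCR2KO. The part of that difference in the results of the class was not tested.

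Alveolar-type-1-like cells, the flat cells of gas exchange, were 80 in WT and 124 in CCR2KO, with 5 genes higher (0.0545%) and 8 lower (0.0872%). B2m went from 8509.8, 6918 and 9080.0 CPM to 2094, 1752 and 2413 CPM (-1.94 ± 0.20 log2 units, adjusted p = 0.00179), with H2-K1 at -1.99 log2 units (adjusted p = 0.00443), and H2-D1 at -1.75 log2 units (adjusted p = 0.00877). The cornified envelope genes Sprr2a1 and Sprr2a2 rose from 22.7, 25.5 and 18.2 CPM to 576, 378 and 519 CPM (4.50 ± 0.38 log2 units, adjusted p = 0.000519) and by 4.34 log2 units (adjusted p = 0.00179). They are near-identical copies, so their reads may be split. Few cells carried them: Sprr2a1 was read in 9 WT and 18 CCR2KO cells (14.5% of the CCR2KO cells), and Sprr2a2 in 8 and 19. The highest single cell held 37.4% of the Sprr2a1 reads in WT and 33.1% in CCR2KO, and 46.7% and 34.0% of those of Sprr2a2. B2m and these 2 genes passed in all 6 fits that left out 1 tag, H2-K1 in 5 and H2-D1 in 3. In alveolar-type-2-like cells Ifi27l2a was at -2.56 log2 units (adjusted p = 0.0122) and Cxcl15 at 0.53 log2 units (adjusted p = 0.0108), in a class with 6 calls (0.052%), passing in 1 and 2 of those fits. In neutrophil-like cells 3 genes fell (0.0388%), Rsad2, Ifi204 and the kinase gene Pim1, and none of these calls held when a tag was left out. In airway-epithelium-like cells Scgb3a1 rose, from 705, 306.4 and 185 CPM to 4919, 2308 and 13157 CPM (4.66 ± 0.62 log2 units, adjusted p = 0.0284), in 4 of 6 fits, as the only called gene (0.0122%). Conventional-dendritic-like, natural-killer-like and adventitial-fibroblast-like cells had 0 called genes in edgeR, with 427, 266 and 716 genes at an unadjusted p under 0.05, or 5.19%, 4.85% and 6.74%.

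Whether the genotype difference in these tags was unlike that in the rest of the series was tested in 1 fit of all 17 tags, as the change in the second block (A0304 to A0306) minus the mean change in the first (A0301 to A0303) and the third (A0307 to A0309). Of 22389 genes 7 differed (0.0313%), 6 of them lower (0.0268%) and 1 higher (0.00447%), and 1951 (8.71%) had an unadjusted p under 0.05. B2m changed by -1.01 on the log2 scale in the second block, -0.33 in the first and -0.43 in the third, a difference of -0.63 ± 0.05 (adjusted p = 8.12e-05). H2-K1 changed by -0.58, 0.04 and 0.10 in the same order, a difference of -0.65 ± 0.09 (adjusted p = 0.00875). Its level was 1512, 1358 and 1587 CPM in WT and 929.9, 1055 and 992 CPM in CCR2KO in the second block, against 1980.2, 1933 and 2123 CPM and 1864, 2095 and 2101 CPM in the first. The genotypes were apart in the second block and overlapped in the first. H2-D1, Ly6e, Ifi27l2a and Phf11d, another interferon-inducible gene, differed by -0.54, -0.45, -1.24 and -1.10, and the chaperone gene Hspa8 by 0.38. B2m, H2-D1 and Ly6e passed in each of the 6 fits that left out 1 of the second block's tags, H2-K1 in 4 (lost without WT tag 3 and CCR2KO tag 1, adjusted p up to 0.0530), Ifi27l2a in 2 and Phf11d in 1 (adjusted p up to 0.156 and 0.225), and Hspa8 in 0 (up to 0.225). Irf7 did not pass, although it changed by -2.64 in the second block, -1.18 in the first and -1.94 in the third (difference -1.08, adjusted p = 0.226). Fst and Ifi44 did not either, at 1.40 (adjusted p = 0.0916) and -1.36 (adjusted p = 0.0585). The summed type I interferon response list stood at 2071, 2047 and 2383 CPM in WT and 1067, 1294 and 1379 CPM in CCR2KO in the first block, and at 961, 799 and 1114 CPM and 408 and 571 CPM in the third, where CCR2KO has 2 tags. Levels in the third block were lower than in the second in WT, and the ranges met in CCR2KO.

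**Figure D5:**
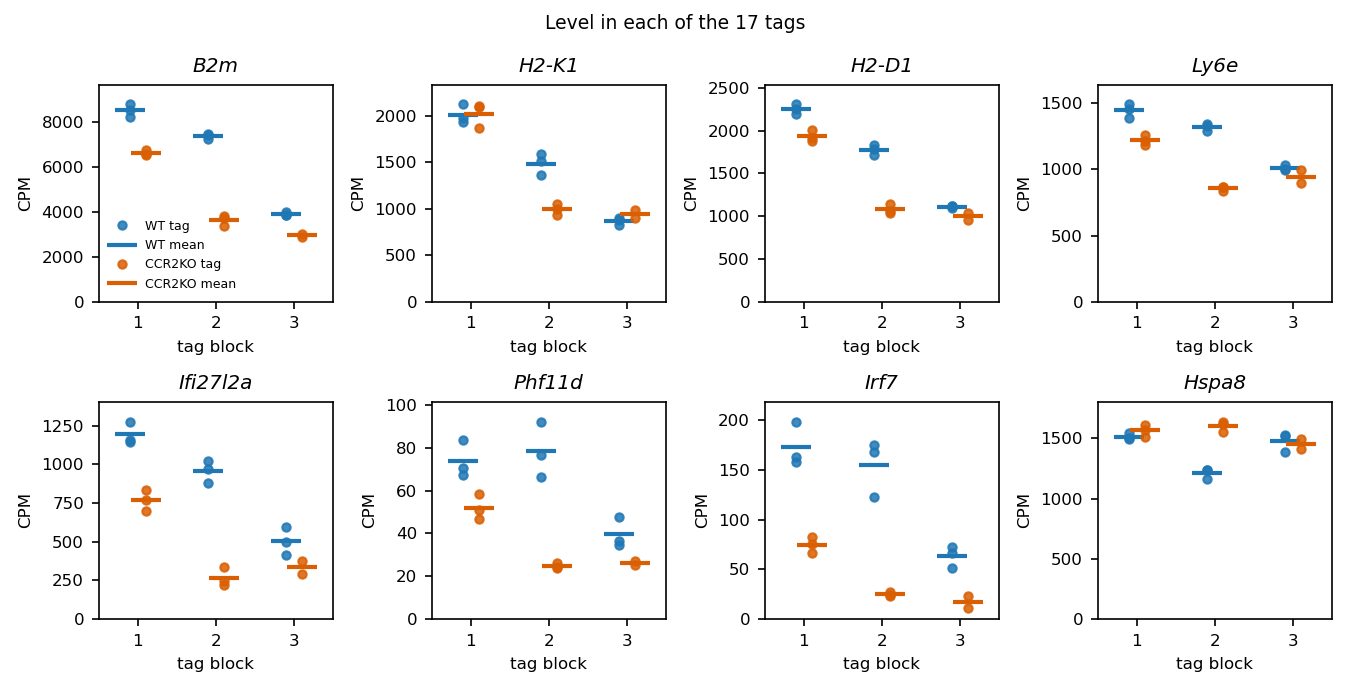
CPM of 8 genes in each WT and CCR2KO tag by tag block (bars are means, axes start at 0), 17 tags in all. In the second block B2m, H2-K1, H2-D1, Ly6e, Ifi27l2a, Phf11d and Irf7 are lower in every CCR2KO tag than in any WT tag, and Hspa8 is higher.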

How the data were processed

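Single-cell RNA of mouse lung was measured on the BD Rhapsody system in 1 deposited table per genotype, with a column per cell that starts with its hashtag. The values are whole-number read counts per gene and cell as the authors deposited them. The submitters' processing notes name cutadapt 2.10, Bowtie2 2.4.2, R 3.6.3 and the build GRCm38, and how reads were counted, filtered and collapsed is not given in the sources used here. Whether molecular identifiers were collapsed is not stated either, and the values are called reads. The 1213 columns without a tag of the series were not used. Cells with 200 or more detected genes and 25% or less mitochondrial reads were kept, and reads were summed per tag, and per class and tag. Genes passing edgeR's low-count filter were tested with edgeR 4.0.16 (R 4.3.3; TMM scaling, quasi-likelihood fit, Benjamini-Hochberg adjustment over all genes tested), 3 tags against 3. CPM are plain, without TMM. The difference between blocks was a contrast in 1 fit of all 17 tags.

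Kept cells of the series that Scrublet did not call doublets were clustered with Scanpy 1.11.5 in Python 3.11.15 (2000 variable genes, 40 principal components, 20 neighbours, leidenalg 0.10.2 at resolution 1.5). Clusters were named from marker lists. The names monocyte, airway epithelium, and innate lymphoid and T cell, for clusters between 2 related lists, were set after the clusters were seen. Scrublet doublets (expected rate 0.06) were left out of the clustering, and so of the classes, their shares and the fits within classes. The whole-lung sums kept them, and leaving them out there was an alternative. Shares were compared with exact permutation tests (scipy 1.17.1). The members and the 38 lists of 367 genes were chosen with earlier results of these data known. Named genes are the 15 largest rises and falls at 20 CPM or more (50 CPM and 6 each within a class) with adjusted p under 0.05 and tags that do not overlap, without predicted, ribosomal and mitochondrial genes, and the called members of the lists with up to 4 others. On simulated data with the real means, the whole-lung test recovered 42% of 2-fold and 59% of 4-fold changes over 19737 genes, with 11 calls among unchanged genes in the same run. The same test recovered 48% of 4-fold changes in alveolar-macrophage-like, 13% in interstitial-macrophage-like and 0% in monocyte-like cells, and 8%, 1% and 0% of 2-fold changes. DESeq2 1.42.0 and other scalings, filters, clusterings and left-out tags were run as alternatives. Promoter windows came from RefSeq (GRCm38.p6). Some single genes of the lists and of the naming rule are not reported here.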

Additional observations from a re-analysis of the deposited data

Results flagged for a closer look

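In all, 7 genes had a genotype difference in the tags A0304 to A0306 that differed from the mean of the other blocks in the edgeR fit of 17 tags. B2m changed by -0.33, -1.01 and -0.43 log2 units in tag blocks 1, 2 and 3, a difference of -0.63 (adjusted p = 8.12e-05). For the heavy chain gene H2-D1 the changes were -0.18, -0.72 and -0.18 in that order, a difference of -0.54 (0.00332), and H2-K1 had 0.04, -0.58 and 0.10, a difference of -0.65 (0.00875). The interferon-induced Ly6e had -0.21, -0.62 and -0.13, a difference of -0.45 (0.00545), Ifi27l2a -0.60, -1.85 and -0.62, a difference of -1.24 (0.0400), and Phf11d -0.48, -1.66 and -0.63, a difference of -1.10 (0.0485). The chaperone gene Hspa8 went the other way, with 0.09, 0.40 and -0.05, a difference of 0.38 (0.0485). Within cell classes of these tags, B2m was lower in CCR2KO in 22 of 22 classes, H2-D1 in 18 of 22 and H2-K1 in 16 of 22. The WT tags all lay above the CCR2KO tags in 16, 9 and 7 of these classes, and the genes were called in 6, 3 and 3. Over all genes tested in the whole lung, the WT tags lay above for 14.7%. Within a class at most 1.17% of all genes were called. The 3 genes were chosen from sums over the same cells, so the classes are no independent evidence. The day of a tag is not in the labels, and block and day or batch cannot be told apart. At equal depth, the WT tags of the second block had more detected genes per cell than the other WT tags. The part of this in the differences was not tested.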

How the results depend on the processing

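Of the 1789 genes called in the whole lung, 1724 were called by DESeq2 (1582 higher and 1592 lower in all) and 880 with monocyte-like and scar-type cells left out (399 and 563), and all 1789 kept their direction under DESeq2. Counting cells with a read gave 1933 higher, 2169 lower and 117 list members lower. Leaving out 1 tag gave 421 to 537 higher, 650 to 750 lower, 61 to 75 list members higher, 58 to 67 lower, and Ccr2 at -5.47 to -4.81. When cells were counted, 1650 of the 1711 called genes tested kept their direction, and 1765 of 1774 did without the monocyte-like and scar-type cells. Among the named genes, directions turned for Reg3g (-0.13), B2m (0.23), H2-D1 (0.051), Junb (0.049) and Jund (0.032) when cells were counted. They turned for Lgals3 (0.12), Gpnmb (0.42) and Arg1 (0.045) without the monocyte-like and scar-type cells. The cause was not tested. The other 8 alternatives (scaling, filters, doublets, equal cells, all tags in 1 fit) gave 1630 to 2221 calls.

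The tag number as a replicate block gave 499 genes higher and 717 lower, 1168 of the 1216 shared with the unblocked fit. Deviations of same-numbered tags correlated at -0.0190, -0.00177 and -0.00299, and those of differently numbered tags at -0.0139 to 0.0175. What same-numbered tags share beyond the number is not in the labels and was not tested.

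Within classes, DESeq2 called 733 genes in activated-fibroblast-like, 493 in alveolar-macrophage-like, 254 in interstitial-macrophage-like and 653 in monocyte-like cells and 1721 in the other 18 classes. Equal cell numbers gave 22 in interstitial-macrophage-like, 10 in monocyte-like and 6 in other classes, and Leiden resolution 0.8 gave 6 in monocyte-like cells and no value for interstitial-macrophage-like cells. Without 1 tag the counts were 26 to 191, 20 to 109, 4 to 48, 0 to 28 and 8 to 13 in the same order. Without 1 tag of the second block, the difference between blocks called 0 to 1 genes higher and 3 to 9 lower. At 2000 reads per cell the difference in detected genes was -96.3.

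Share differences (CCR2KO minus WT, percentage points) moved to 1.17 for adventitial and 4.14 for alveolar fibroblast-like cells at resolution 0.8, to 0.704 and 4.75 with these tags clustered alone, and to 4.28 for the latter with called genes left out. That last setting gave -1.43 for interstitial macrophage-like, -1.19 for large vessel-like and -4.82 for scar-type cells. Interstitial macrophage-like cells turned to 0.450 with these tags alone and large vessel-like cells to 0.438 at resolution 0.8. Of haematopoietic cells the differences were -1.52 for conventional dendritic, 1.91 for innate lymphoid and T, -3.98 for interstitial macrophage, -12.1 for monocyte, 18.1 for neutrophil, 0.396 for plasma and -12.2 for scar-type cells. Without 1 tag they were 2.39 to 3.41 (adventitial fibroblast), 0.735 to 1.03 (airway epithelium), 2.50 to 2.87 (alveolar fibroblast), 0.478 to 0.875 (alveolar type 1), 3.00 to 4.41 (alveolar type 2), -1.30 to -1.04 (conventional dendritic), 0.868 to 1.60 (cluster 21), -1.83 to -0.820 (general capillary endothelium), 0.404 to 0.790 (innate lymphoid and T cell), -2.95 to -2.08 (interstitial macrophage), -0.599 to -0.319 (large vessel endothelium), 0.551 to 0.686 (mesothelial), -0.828 to -0.515 (migratory dendritic), -7.28 to -5.23 (monocyte), -1.30 to -0.748 (natural killer), 4.97 to 7.02 (neutrophil), 0.126 to 0.201 (plasma), -6.68 to -6.03 (scar-type macrophage). With 3 tags a genotype, 0.1 is the smallest exact p for a share.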
